A study of Mus musculus with 15 samples.

Results

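The 42 genes described here encode fibrillar collagens, the proteins that process and bind them, and factors of the fibroblasts that cover the brain, out of 53337 genes in the table. The genes were chosen by name and function, with earlier results of these data known, and 12 of them are also on the study's own list of genes changed in females, which was chosen on these libraries. They fall into 7 roles: 5 fibrillar collagens, 5 other collagens, 8 proteins of collagen processing and crosslinking, 5 small leucine-rich proteoglycans, 7 matrix glycoproteins and microfibril proteins, 6 meningeal transcription factors, and 6 secreted, junction and transport proteins. Their mRNA was measured in dorsal forebrain of C57BL/6J mouse embryos at embryonic day 18. Dams carried a subcutaneous osmotic pump that released arginine vasopressin (AVP) or saline from before breeding and through gestation, a model of preeclampsia. The labels name no altered allele, and apart from the pump's content the groups shared strain, tissue and age. There were 3 libraries of AVP-exposed females, 4 of saline females, 4 of AVP-exposed males and 4 of saline males, each from 1 brain. A further AVP-exposed female was left out by the authors for high variance and was not analysed here. The brains, the one left out included, came from 8 litters, and per the study those of 1 group came from different litters. As treatment was given to the dam, each litter then gave 1 male and 1 female. The labels do not say which libraries were littermates, and the fits over both sexes treated all libraries as independent.

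Fibrillar collagens are secreted as procollagens, hydroxylated and folded in the endoplasmic reticulum, trimmed outside the cell, assembled into fibrils and crosslinked by lysyl oxidases. Small leucine-rich proteoglycans bind the fibril surface and set fibril spacing and width. In the embryonic brain these proteins are made mainly by fibroblasts of the meninges, the membranes that wrap the forebrain, and by fibroblasts and mural cells along larger vessels, whereas the neural tissue itself makes little fibrillar collagen. The meninges also secrete signals to the cortex beneath, among them CXCL12 and retinoic acid.

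Values are TPM, the abundance of a transcript divided by its length and by the total of its library, here summed over the transcripts of a gene. Counts cannot be had from them, so the depth behind a value is unknown and no counting interval was given. In bulk tissue, fewer cells of a type and less RNA per cell cannot be told apart. In 14 libraries the sex-linked transcripts were those of the labelled sex. The exception was the library labelled saline male 3, where Xist stood at 265.8 TPM and Y-linked genes together at 0.489 TPM. The other 7 males had 0.121 to 1.13 TPM of Xist and at least 102.0 TPM of Y-linked transcripts. The members' main counts and medians in the comparisons with males are therefore also given without that library. Counts and medians of the marker lists in males are given only with it. Markers of dorsal forebrain neurons and progenitors summed to between 999 and 1398 TPM in every library, and 8 markers of cartilage, bone and skeletal muscle to between 3.23 and 9.64 TPM.

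Upstream sequences are shown for 4 members that were higher in AVP-exposed females than in saline females, to show how unlike the starts of such genes were in base composition. The set of RefSeq starts used here, in GRCm38.p6, held 29 of the 42 members. The 250 bases before the start are printed in the sense of the gene for the fibril collagens Col3a1 (chr1:45311288-45311537, plus strand) and Col5a1 (chr2:27886175-27886424, plus strand), the proteoglycan gene Ogn (chr13:49607765-49608014, plus strand) and the collagen chaperone gene Serpinh1 (chr7:99353240-99353489, minus strand). Capitals mark every match, on either strand, to the CCAAT box, to the TATA box (letters TATAAA), to the GC box (letters GGGCGG), to a forkhead motif (letters TGTTTAC) or to a T-box motif (letters GTGTGA), and in Ogn a pair of TATAAA matches on opposite strands overlap.
Col3a1: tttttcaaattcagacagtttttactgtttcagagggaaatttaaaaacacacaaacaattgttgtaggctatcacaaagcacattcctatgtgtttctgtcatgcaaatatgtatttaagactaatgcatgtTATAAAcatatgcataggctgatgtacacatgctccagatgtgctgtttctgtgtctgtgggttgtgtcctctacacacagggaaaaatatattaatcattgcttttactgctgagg
Col5a1: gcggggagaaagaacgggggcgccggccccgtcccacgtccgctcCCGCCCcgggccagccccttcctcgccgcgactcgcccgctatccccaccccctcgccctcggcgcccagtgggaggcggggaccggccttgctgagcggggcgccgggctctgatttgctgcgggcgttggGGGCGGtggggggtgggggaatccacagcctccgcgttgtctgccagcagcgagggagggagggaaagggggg
Ogn: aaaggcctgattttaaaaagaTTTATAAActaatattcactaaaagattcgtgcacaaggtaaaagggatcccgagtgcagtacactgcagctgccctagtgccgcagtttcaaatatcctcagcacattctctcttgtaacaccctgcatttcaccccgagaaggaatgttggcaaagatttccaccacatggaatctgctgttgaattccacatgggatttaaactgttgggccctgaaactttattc
Serpinh1: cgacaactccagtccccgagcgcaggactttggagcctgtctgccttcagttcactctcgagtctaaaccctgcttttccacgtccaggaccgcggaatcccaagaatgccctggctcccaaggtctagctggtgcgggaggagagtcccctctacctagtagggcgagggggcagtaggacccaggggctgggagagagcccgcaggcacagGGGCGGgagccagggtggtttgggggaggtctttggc
G and C made up 35.2% of the Col3a1 window and 42% of the Ogn window, but 76.4% of the Col5a1 window and 63.6% of the Serpinh1 window. Over the 29 members the median was 59.2%, against 52% over 27025 windows of the same length. GGGCGG was present in 18 of the 29 windows (62.1%), against 32.9% of all windows. CCAAT was present in 6 (20.7% against 34.5%), TATAAA in 2 (6.90% against 12.97%), GTGTGA in 3 (10.3% against 12.2%) and TGTTTAC in 1 (3.45% against 3.09%). These shares describe the letters of the windows and were not tested. Some members are also neighbours in the genome: Col3a1 and Col5a2 lie on opposite strands of chromosome 1 with 24614 bases between them, Col6a1 and Col6a2 lie 85161 bases apart on chromosome 10, and Dcn and Lum lie 46984 bases apart on the same chromosome.

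In females, 38 of the 40 members tested had a higher mean of log2(TPM + 0.5) with AVP than with saline, beside 36.9% of all genes tested, and in 24 every AVP-exposed female lay above every saline female. Such separation, with AVP higher, was seen in 2.78% of all 15132 genes tested in females, and separation with AVP lower in 2.77%. The median log2 fold change of the members, on the log2(TPM + 0.5) scale, was 0.62, beside -0.05 for all genes. By limma's test with Benjamini-Hochberg adjustment over all genes tested, no member passed an adjusted p of 0.05 in females (all between 0.998 and 0.999), as was so for 0% of all genes. At an unadjusted p under 0.05, 23 members were higher and 0 lower, beside 2.34% of all genes higher. A Wald z test after the scheme of Sleuth, the study's own tool, called 0.0991% of genes higher in females, which were 15 genes. Among them were 9 members: Col1a1, Col1a2, Col3a1, Serpinh1, Lox, Dcn, Ogn, Postn and Cped1. All of these but Col3a1 and Ogn are on the study's list, which came from Sleuth's Wald test on these libraries. The z test takes p from a normal distribution whatever the number of libraries. In males it called 108 genes, where limma called 1. All 12 members on the study's list were separated, with a median log2 fold change of 0.80, which is no independent evidence because that list was drawn from these libraries. Of the other 30 members, 28 were tested, 26 were higher, 12 were separated and the median was 0.50.

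**Figure D1:**
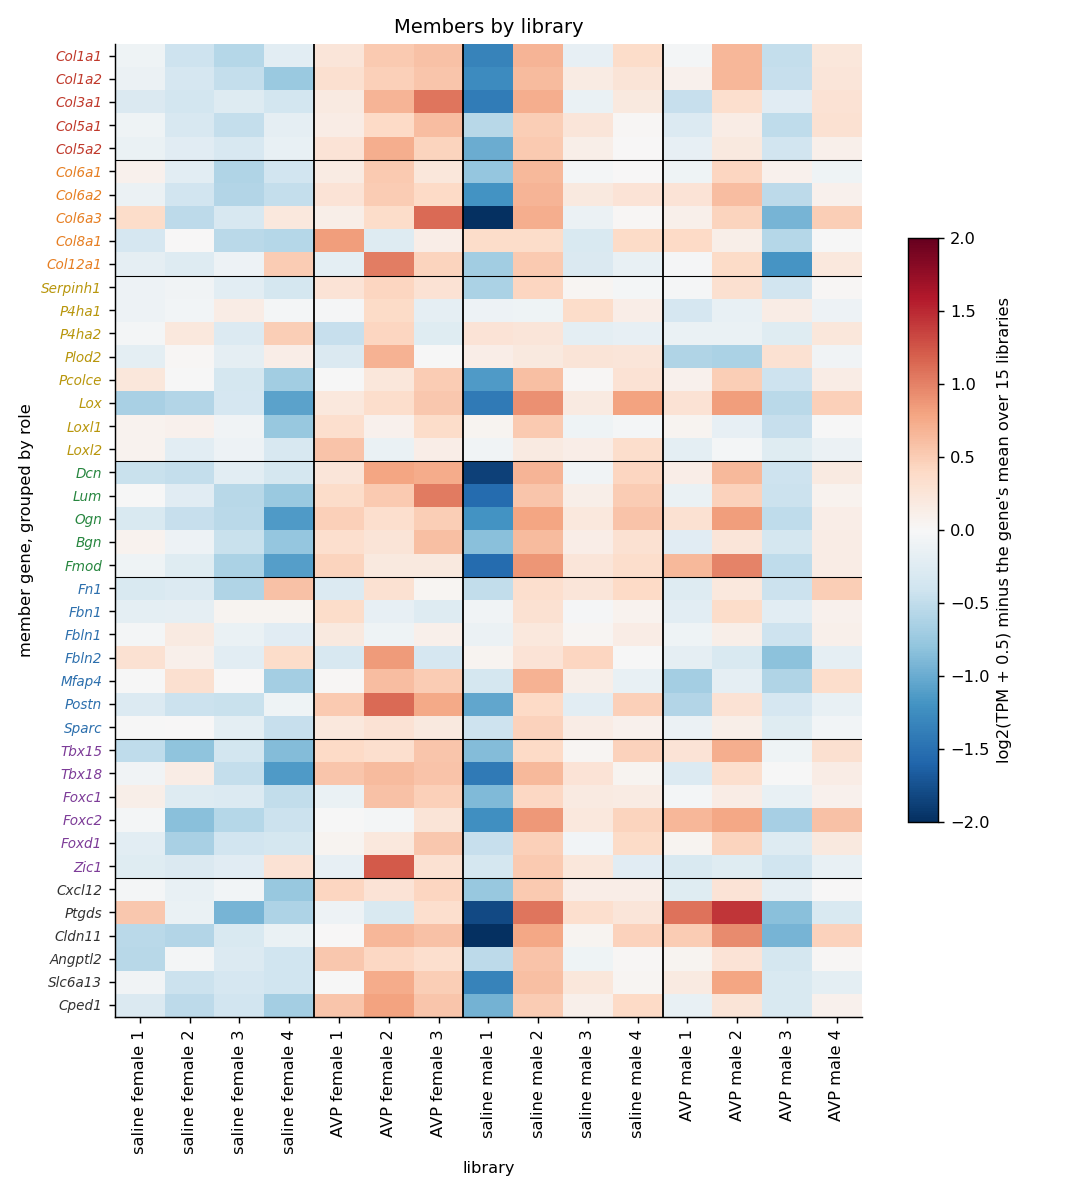
Level of each of the 42 members (rows, coloured and ruled off by role) in each of the 15 libraries (columns, by group), as log2(TPM + 0.5) minus the gene's mean over all libraries, red above and blue below. AVP-exposed females are mostly red and saline females mostly blue, while saline male 1 is the lowest of 15 libraries for 26 members and saline male 2 the highest for 15.

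Fibrillar collagens were all separated in females. Col1a1 (chr11:94936224-94953042) and Col1a2 (chr6:4504814-4541544) encode both chains of type I collagen, the main fibril of dura, pia and vessel walls. Col1a1 was at 16.8, 20.6 and 21.4 TPM in AVP-exposed females and at 13.3, 10.5, 9.402 and 12.2 TPM in saline females. Its log2 fold change was 0.77 ± 0.16 (SE), with an unadjusted p of 0.00117 by limma. Col1a2 was at 36.2, 40.3 and 42.7 TPM with AVP against 26.5, 22.9, 20.6 and 17.2 TPM with saline, so again the groups did not overlap, with a log2 fold change of 0.86 ± 0.15 (SE). In males the same genes overlapped widely. Col1a1 was at 13.7, 22.7, 9.997 and 16.6 TPM in AVP-exposed males and at 5.28, 22.8, 12.6 and 18.4 TPM in saline males, and the saline values lay both below and above all 4 AVP values. Col1a2 was at 30.7, 46.2, 20.9 and 34.3 TPM and 11.8, 45.3, 32.4 and 34.6 TPM, with its lowest value in saline male 1 and its highest in AVP-exposed male 2.

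Col3a1 (chr1:45311538-45349706), the chain of type III collagen found with type I in soft tissue and vessel walls, was at 47.9, 68.1 and 89.5 TPM in AVP-exposed females and at 34.6, 32.6, 35.3 and 32.4 TPM in saline females. The 4 saline females differed by no more than 1.09-fold, and the lowest AVP-exposed female stood clear above them, with a log2 fold change of 0.97 ± 0.19 (SE). In males Col3a1 was at 30.4, 53.5, 35.96 and 51.7 TPM with AVP against 15.6, 70.3, 38.5 and 48.1 TPM with saline. Col5a1 and Col5a2 encode chains of type V collagen, which starts type I fibrils and limits their width. Col5a1 was at 6.15, 7.36 and 8.697 TPM with AVP and 5.17, 4.303, 3.82 and 4.81 TPM with saline in females, and at 4.45, 6.11, 3.71 and 6.94 TPM with AVP and 3.602, 7.96, 6.602 and 5.596 TPM with saline in males. Col5a2 was at 9.36, 13.04 and 10.7 TPM with AVP and 6.95, 6.52, 6.06 and 6.91 TPM with saline in females, and at 6.78, 8.899, 5.76 and 8.27 TPM with AVP and 3.61, 11.3, 8.38 and 7.79 TPM with saline in males. Their log2 fold changes in females were 0.65 ± 0.18 and 0.69 ± 0.16 (SE), and both were separated in females and overlapped in males.

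Chains that assemble together kept more nearly constant proportions than levels, and so did some other pairs of members. The ratio of Col1a1 to Col1a2 TPM ranged from 0.390 to 0.709 over the 15 libraries, a 1.82-fold range, while Col1a1 itself ranged 4.32-fold. Its group means were 0.492 in AVP-exposed females, 0.531 in saline females, 0.476 in AVP-exposed males and 0.468 in saline males. The ratio of Col5a1 to Col5a2 ranged 1.77-fold and that of Col6a1 to Col6a2 2.05-fold. Among other pairs, Lum to Dcn ranged 1.86-fold, while Lum itself ranged 7.40-fold and Dcn 6.55-fold. Col3a1 to Col1a2 ranged 2.11-fold. Serpinh1 against Sparc was the steadiest of 11 ratios computed, at 0.364 to 0.491, a 1.35-fold range. Ptgds against Cldn11 was the least steady, from 8.91 to 37.8.

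Type VI collagen forms beaded filaments around cells and between fibrils. In females Col6a1 (chr10:76708792-76726168) was at 11.002, 14.4 and 11.5 TPM with AVP against 10.4, 8.34, 6.32 and 7.398 TPM with saline, and Col6a2 (chr10:76595762-76623630) at 10.2, 11.99 and 11.1 TPM and 7.63, 6.23, 5.35 and 5.83 TPM. Both were separated, with log2 fold changes of 0.58 ± 0.19 and 0.79 ± 0.16 (SE). In males Col6a1 was at 9.17, 13.4, 10.4 and 9.19 TPM with AVP and 5.53, 15.7, 9.55 and 9.84 TPM with saline, and Col6a2 at 10.2, 13.01, 5.66 and 8.85 TPM and 3.34, 13.7, 9.56 and 10.1 TPM. Col6a3, the longest chain, was at 6.14, 7.39 and 12.9 TPM in AVP-exposed females and 7.34, 3.73, 4.36 and 6.51 TPM in saline females, and here the groups overlapped. It had the widest range of all members, 13.9-fold over the 15 libraries. Saline males, at 0.931, 9.55, 5.12 and 5.69 TPM, spanned 10.3-fold, and AVP-exposed males were at 6.02, 7.82, 2.69 and 8.098 TPM. A retained-intron transcript, Col6a3-206, held on average 44.5% of the gene's TPM, with group means of 47.5% in AVP-exposed females, 61.4% in saline females, 37.5% in AVP-exposed males and 32.3% in saline males. Col12a1, a collagen that sits on the fibril surface, was between 1.75 and 9.77 TPM in all libraries with overlapping groups in both sexes. Col8a1, a short-chain collagen of basement membranes, was between 0.333 and 1.70 TPM, passed the filter of 1 TPM in at least 50% of libraries in males alone and was not tested in females.

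**Figure D2:**
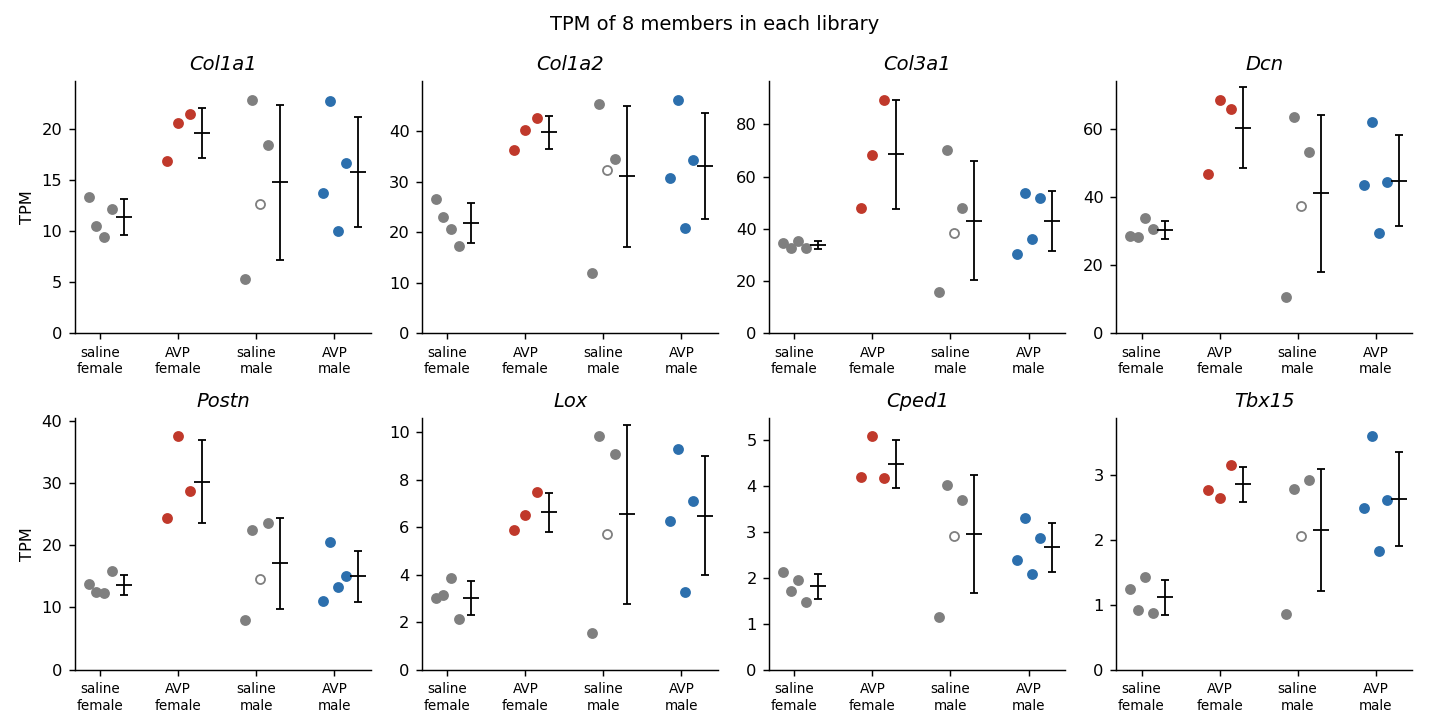
TPM (linear axes from 0) of 8 members in each library, by group, with the mean and SD beside the points, and the library labelled saline male 3 drawn open. In females the AVP points lie above all saline points for all 8 genes, while saline males run from below the saline females to the level of the AVP-exposed females or near it.

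Among the 8 genes of collagen processing and crosslinking, 7 were higher in females, 3 were separated and the median log2 fold change was 0.38. Serpinh1, the endoplasmic reticulum chaperone HSP47 that binds procollagen, was at 86.1, 95.8 and 86.5 TPM in AVP-exposed females and at 65.97, 67.9, 61.2 and 55.5 TPM in saline females. Its log2 fold change was 0.51 ± 0.10 (SE), the smallest SE of the 40 members tested in females. In males it was at 70.2, 88.7, 54.3 and 72.6 TPM with AVP and 45.8, 96.4, 72.7 and 69.4 TPM with saline. Lox, lysyl oxidase, which starts the crosslinks of collagen and elastin, was at 5.86, 6.503 and 7.49 TPM in AVP-exposed females and at 2.999, 3.16, 3.85 and 2.12 TPM in saline females, a log2 fold change of 1.03 ± 0.21 (SE). In males Lox was at 6.24, 9.299, 3.27 and 7.11 TPM with AVP and 1.56, 9.82, 5.72 and 9.06 TPM with saline, and the saline males alone differed 6.29-fold. Loxl1, a related oxidase tied to elastic fibres, was separated narrowly in females, at 6.299, 5.21 and 6.41 TPM and 5.15, 5.18, 4.604 and 2.67 TPM, and was at 5.08, 4.29, 3.41 and 4.86 TPM with AVP and 5.05, 7.21, 4.57 and 4.72 TPM with saline in males. Pcolce, an enhancer of procollagen trimming, overlapped in females, at 7.72, 9.23 and 11.3 TPM and 9.21, 7.78, 6.01 and 4.61 TPM, and in males, at 8.26, 11.2, 5.69 and 8.72 TPM and 3.29, 12.01, 7.97 and 9.57 TPM. The hydroxylases, which are also used for other collagens and by other cells, were nearer to no difference. P4ha1 had a log2 fold change in females of 0.07 ± 0.15 (SE), Plod2 of 0.19 ± 0.24 (SE) and P4ha2 of -0.18 ± 0.26 (SE), and Loxl2, another crosslinking oxidase, of 0.33 ± 0.22 (SE). Of 20 further collagen biosynthesis genes tested in females, from a list of 25, 9 were higher, 2 were separated upward and 1 downward, and the median log2 fold change was -0.01. The largest changes among them were Fkbp10, a prolyl isomerase of procollagen, at 0.41 and Colgalt2, a collagen galactosyltransferase, at -0.39. 

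All 5 small leucine-rich proteoglycans were higher and separated in females, with the highest median of the 7 roles, 0.97. Dcn (chr10:97479609-97518143), decorin, which coats type I fibrils, was at 46.9, 68.7 and 65.9 TPM in AVP-exposed females and at 28.7, 28.2, 33.98 and 30.6 TPM in saline females. Its log2 fold change was 0.97 ± 0.15 (SE), with an unadjusted p of 0.000154 by limma. In males Dcn was at 43.4, 62.2, 29.4 and 44.5 TPM with AVP and 10.5, 63.6, 37.3 and 53.2 TPM with saline, a 6.07-fold range among saline males alone. Lum (chr10:97565128-97572703), lumican, was at 7.95, 8.91 and 12.9 TPM and 6.003, 5.11, 3.94 and 3.44 TPM in females, and at 5.47, 8.54, 4.35 and 6.399 TPM and 1.75, 9.12, 6.62 and 8.802 TPM in males. Ogn (chr13:49608046-49624501), osteoglycin or mimecan, was at 19.8, 17.9 and 20.1 TPM with AVP and 11.4, 10.2, 9.63 and 6.18 TPM with saline in females, and at 17.6, 25.8, 9.84 and 15.6 TPM and 5.905, 24.7, 16.4 and 21.4 TPM in males. Lum and Ogn had log2 fold changes of 1.02 ± 0.24 and 1.04 ± 0.20 (SE) in females. Bgn, biglycan, and Fmod, fibromodulin, had log2 fold changes of 0.72 ± 0.20 and 0.79 ± 0.25 (SE) in females. Summed over the 5 genes, AVP-exposed females held 120.4, 138 and 150.4 TPM and saline females 82.4, 75.7, 72.5 and 59.6 TPM. AVP-exposed males held 102, 144, 70.5 and 106 TPM and saline males 35.9, 155, 99.9 and 127 TPM. Of 14 other small proteoglycan, fibulin and microfibril genes tested in females, from a list of 19, 11 were higher, 3 were separated and the median was 0.13. The largest of these were Efemp1 (fibulin-3) at 0.97 and Fbln5 (fibulin-5) at 0.80.

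Matrix glycoproteins and microfibril proteins were the least separated role, with 2 of 7 separated in females and a median log2 fold change of 0.17. Postn, periostin, which binds collagen and is made by fibroblasts, had the largest log2 fold change in females of the 40 members tested, with Cped1 next. It was at 24.4, 37.5 and 28.7 TPM in AVP-exposed females and at 13.8, 12.4, 12.3 and 15.8 TPM in saline females. The log2 fold change was 1.11 ± 0.17 (SE), with an unadjusted p of 0.000142 and an adjusted p of 0.998 by limma. In males it was at 11, 20.6, 13.2 and 15.1 TPM with AVP and 7.99, 22.4, 14.5 and 23.5 TPM with saline, with AVP and saline values mixed. Sparc (osteonectin), a collagen-binding protein also made by vessels and glia, was separated at far higher levels, 193, 204 and 191 TPM with AVP and 167, 168, 146 and 121 TPM with saline in females, but by a log2 fold change of only 0.39 ± 0.12 (SE). In males Sparc was at 154, 181, 141 and 161 TPM and 126, 231, 185 and 177 TPM. Mfap4, a microfibril-associated protein, overlapped in females, at 18.7, 28.5 and 26.4 TPM and 18.4, 23.2, 18.5 and 11.4 TPM, and in males, at 11.4, 16.2, 12.04 and 23.7 TPM and 14.4, 30.3, 19.97 and 16.5 TPM. Fn1 (fibronectin), Fbn1 (fibrillin-1) and Fbln1 (fibulin-1) had log2 fold changes in females between 0.05 and 0.17, and none was separated. Fbln2, fibulin-2, was at 10.1, 23.6 and 10.1 TPM with AVP and 15.9, 13.7, 11.001 and 16.6 TPM with saline in females, with 1 AVP-exposed female above all others.

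The meningeal transcription factors were measured at low levels. Tbx15, a T-box factor of mesenchyme, was at 2.78, 2.65 and 3.16 TPM in AVP-exposed females and at 1.25, 0.924, 1.43 and 0.868 TPM in saline females. That gave a log2 fold change of 1.07 ± 0.21 (SE), on a scale whose pseudocount of 0.5 TPM shrinks changes at such levels. In males it was at 2.498, 3.6, 1.84 and 2.62 TPM with AVP and 0.864, 2.79, 2.06 and 2.92 TPM with saline. Tbx18, a T-box factor also of mural cells, was separated in females, at 5.61, 5.95 and 5.67 TPM and 3.48, 4.12, 2.49 and 1.41 TPM, and was at 2.97, 4.79, 3.67 and 4.15 TPM and 1.07, 6.06, 4.52 and 3.85 TPM in males. Its log2 fold change in females was 0.96 ± 0.30 (SE). Foxc1 and Foxc2, forkhead factors needed for the meninges and head mesenchyme, overlapped in females and were at most 3.42 TPM in any library. Zic1, a zinc finger factor of meninges and of neural cells, was at 10.3, 27.9 and 14.5 TPM with AVP and 9.71, 9.42, 9.87 and 14.3 TPM with saline in females. Its highest value was in AVP-exposed female 2, and the rest of the females lay between 9.42 and 14.5 TPM. Foxd1, a forkhead factor, was between 0.302 and 1.33 TPM and passed the filter in no comparison.

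Of the 6 secreted, junction and transport proteins, all were higher and 5 were separated in females, with a median log2 fold change of 0.73. Cldn11, the tight junction claudin of the arachnoid barrier and of myelin, was at 13.9, 22.1 and 20.9 TPM in AVP-exposed females and at 9.28, 8.97, 10.99 and 12.5 TPM in saline females, 0.81 ± 0.20 (SE) on the log2 scale. In males it was at 19.8, 26.99, 6.97 and 19.2 TPM and 3.101, 23.9, 14.3 and 19.2 TPM. Slc6a13, the GABA transporter GAT2 of the meninges, was at 13.1, 22.4 and 18.8 TPM and 12.6, 9.67, 10.4 and 9.95 TPM in females, and at 15.03, 23.2, 10.6 and 11.5 TPM and 4.95, 20.4, 15.5 and 13.7 TPM in males. Angptl2, a secreted angiopoietin-like protein, was at 6.42, 5.89 and 5.51 TPM and 2.74, 4.16, 3.44 and 3.13 TPM in females and at 4.49, 5.28, 3.26 and 4.37 TPM and 2.81, 6.56, 4.01 and 4.38 TPM in males. The log2 fold changes of Slc6a13 and Angptl2 in females were 0.71 ± 0.20 and 0.75 ± 0.18 (SE). Cped1, a little-studied gene with a cadherin-like domain, was at 4.18, 5.07 and 4.16 TPM in AVP-exposed females and at 2.12, 1.72, 1.94 and 1.48 TPM in saline females, 1.11 ± 0.19 (SE) on the log2 scale. In males Cped1 was at 2.38, 3.31, 2.09 and 2.86 TPM with AVP and 1.16, 4.02, 2.91 and 3.7 TPM with saline. Cxcl12, the chemokine that guides Cajal-Retzius cells and interneurons under the meninges, was at 72.3, 64.4 and 72.2 TPM and 52.2, 47.99, 51.1 and 31.4 TPM in females and at 44.8, 64.4, 47.003 and 53.4 TPM and 31.3, 77.2, 58.4 and 58.3 TPM in males, separated in females by 0.63 ± 0.18 (SE). Ptgds, prostaglandin D synthase, a major secreted product of arachnoid cells, was not separated. It was at 227, 197 and 306 TPM with AVP and 351, 220.2, 127 and 159 TPM with saline in females, and at 517, 653, 136 and 196 TPM and 68.99, 508, 305 and 288 TPM in males, a 9.46-fold range.

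In males, 23 of 41 members tested were higher with AVP and 18 lower, with a median log2 fold change of 0.02, beside -0.10 for all genes. Median-of-ratios scaling moved the median of all genes in males from -0.10 to 0.00 and that of the members from 0.02 to 0.13, with 27 members higher. No member was called by limma in males (adjusted p between 0.304 and 0.999), beside 0.00655% of all 15271 genes tested. At an unadjusted p under 0.05, 0 members were higher, beside 1.11% of genes, and 2 were lower, beside 12.4% of genes. Those were Fbln2, at 11.2, 10.2, 7.03 and 11.2 TPM with AVP and 13.3, 15.6, 17.4 and 12.8 TPM with saline, and the collagen lysyl hydroxylase gene Plod2, at 6.52, 6.33, 12.6 and 9.62 TPM and 11.2, 11.7, 12.2 and 12.03 TPM. Fbln2, with a log2 fold change of -0.56 ± 0.17 (SE), was the only member whose AVP and saline males did not overlap, and Plod2 had -0.46 ± 0.20 (SE). No member was separated upward in males, where 0.733% of genes were separated with AVP higher and 6.54% with AVP lower. All 7 matrix glycoproteins and microfibril proteins had a lower mean of log2(TPM + 0.5) with AVP in males, as did 73.6% of all genes tested, against 1 of 5 fibrillar collagens and 1 of 5 small proteoglycans. These 3 counts were also 7, 1 and 1 without the library labelled saline male 3, beside 69.8% of all genes. When that library was left out, limma called 0 genes in males, 21 of 41 members were higher, their median was 0.06 and 1 member was lower at an unadjusted p under 0.05. The direction in males changed with single libraries. Without saline male 1, 1 of 40 members was higher and the median was -0.26, and without saline male 2, 29 of 40 were higher and the median was 0.21. Without the library labelled saline male 3, Fbln2 was at -0.48 ± 0.18 (SE) and Plod2 at -0.44 ± 0.23 (SE).

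**Figure D3:**
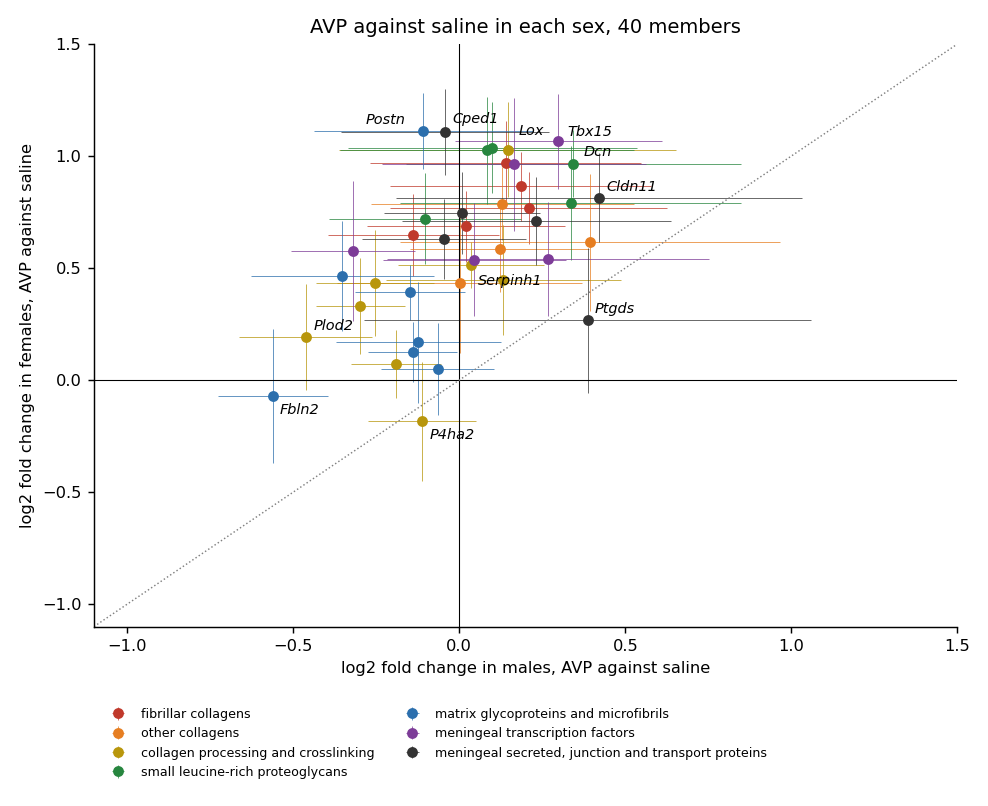
Log2 fold change of AVP against saline in females (vertical) and males (horizontal) for the 40 members tested in both sexes, on the log2(TPM + 0.5) scale, with 1 SE either way, coloured by role, and a dotted line of equal change. In all, 38 points lie above the dotted line, and Postn and Cped1 lie near 1.11 in females and slightly below 0 in males.

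The difference of the AVP effect between the sexes was tested directly as the interaction over all 15 libraries. In 38 of the 40 members tested the effect was higher in females, with a median difference of 0.63, beside 0.07 for all 15078 genes tested. No member passed (adjusted p of 0.896 or more), and 0% of all genes did. At an unadjusted p under 0.05, 8 members had a higher effect in females, beside 2.52% of genes: Cped1, Postn, Loxl2, Sparc, Angptl2, Col5a1, Zic1 and Loxl1. Postn had a difference of 1.22 ± 0.41 (SE) and Cped1 of 1.15 ± 0.38 (SE). That count was 26 without saline male 1, 3 without saline male 2, 4 without AVP-exposed male 3, 5 without AVP-exposed female 2 and 5 without the library labelled saline male 3, where the median difference was 0.59. Without the library labelled saline male 3 the difference was 1.26 ± 0.44 (SE) for Postn and 1.12 ± 0.41 (SE) for Cped1. With both sexes in 1 model, 33 of 40 members were higher with AVP and the median was 0.33, beside -0.08 for all genes. Again no member was called (adjusted p between 0.462 and 0.987), and 0% of genes were. At an unadjusted p under 0.05, 1 member was higher, beside 0.683% of genes. This was Tbx15, at 0.65 ± 0.21 (SE) with a p of 0.00779 by limma, and 11 members were so under median-of-ratios scaling. The count was 20 without saline male 2, 13 without AVP-exposed male 3, 10 without saline male 4, 4 without AVP-exposed male 1 and 4 without the library labelled saline male 3, with a median of 0.36 and Tbx15 at 0.69 ± 0.23 (SE) in the last.

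The members' spread within a group was widest among saline males. The median over members of the highest over the lowest TPM was 2.97-fold in saline males, beside 1.27-fold over all genes tested in males. In saline females it was 1.60-fold, beside 1.31-fold over all genes tested in females, and it was 1.89-fold in AVP-exposed males and 1.47-fold in AVP-exposed females. More than 2-fold separated the highest and lowest saline males in 31 members, against 7 in saline females. Saline male 1 was the lowest saline male for 38 members and saline male 2 the highest for 33. For 21 members, Col1a1 and Col1a2 among them, all 3 AVP-exposed females lay within the range of the saline males. Without the library labelled saline male 3 the median range in saline males was 2.97-fold beside 1.22-fold over all genes, 30 members exceeded 2-fold, saline male 1 was lowest for 38 and saline male 2 highest for 34, and 21 members again held the AVP-exposed females within the range. AVP-exposed male 3 was the lowest AVP-exposed male for 34 members and AVP-exposed male 2 the highest for 31. The genes without this wide range were mostly enzymes and microfibril proteins, such as Plod2 at 1.10-fold, Fbln1 at 1.27-fold and Fbn1 at 1.35-fold among saline males. The widest were Foxc2 at 11.1-fold, Col6a3 at 10.3-fold, Cldn11 at 7.70-fold and Ptgds at 7.36-fold.

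**Figure D4:**
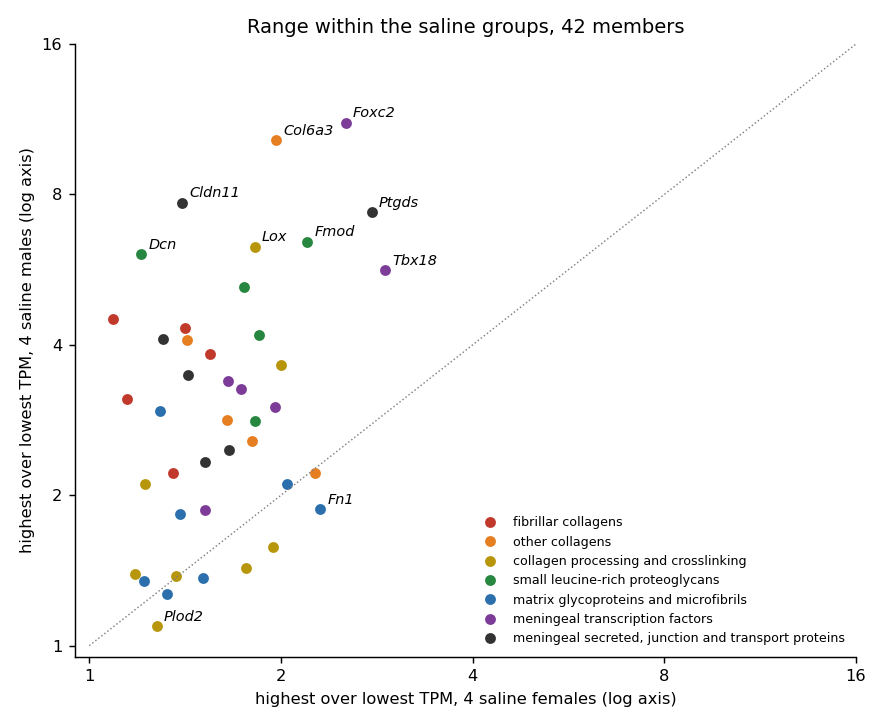
Highest over lowest TPM among the 4 saline males (vertical) and among the 4 saline females (horizontal) for the 42 members, on log axes, coloured by role, with a dotted line of equal range. Most members lie above the line, with Foxc2, Col6a3 and Cldn11 highest at 11.1-fold, 10.3-fold and 7.70-fold in saline males, while Plod2 lies near 1.10-fold.

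The labels' library numbers fall into the runs 1 to 8 and 13 to 20, and the members were compared within each. Among females 33 of 40 members were higher with AVP in the first run (1 AVP and 2 saline libraries), with a median log2 difference of 0.40, and 38 of 40 in the second (2 and 2), with a median of 0.84. Among males 28 of 41 members were higher with AVP in the first run (2 and 2), with a median of 0.25, and 3 of 41 in the second (2 and 2), with a median of -0.27. Without the library labelled saline male 3 the second run held 1 saline male, and again 3 of 41 members were higher, with a median of -0.34. Dcn, for example, differed by 0.71 and 1.05 in the runs of females and by 0.98 and -0.30 in the runs of males. The direction in females thus held within both runs, and that in males did not.

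In females, further markers of meningeal fibroblasts and markers of other cells of the meninges and vessels were mostly higher with AVP, as the members were. Of 13 other meningeal fibroblast markers tested in females, from a list of 18, 10 were higher and 6 separated, with a median log2 fold change of 0.58. Slc22a6, an organic anion transporter, was at 0.91 and Aldh1a2, a retinoic acid synthesis enzyme of the meninges, at 0.90. The summed level of that list overlapped in females, at 1506.9 to 1915.7 TPM with AVP and 1577.5 to 2029.4 TPM with saline. Of 6 border macrophage markers tested, from a list of 8, all were higher and 4 separated, with a median of 1.02, led by F13a1 (coagulation factor XIII) at 1.12 and Pf4 (platelet factor 4) at 1.07. Their summed level was 65.8, 63.5 and 72.4 TPM in AVP-exposed females and 43.4, 37.8, 35.7 and 31.9 TPM in saline females. In males it was 46.03, 77.9, 41.5 and 53.8 TPM with AVP and 20.8, 84.3, 64.3 and 45.8 TPM with saline, again lowest in saline male 1 and highest in saline male 2. Of 8 endothelial markers 7 were higher in females and 4 separated (median 0.43), with Tek at 0.64 and Cdh5 at 0.59. Of 8 mural cell markers tested, from a list of 9, 7 were higher and 3 separated (median 0.31), with the muscle genes Acta2 at 0.70 and Tagln at 0.66. In males 9 of 15 other meningeal fibroblast markers tested were higher with AVP (median 0.03), and 6 of 7 border macrophage markers (median 0.07). Only 1 of 8 endothelial markers was higher in males (median -0.17) and 0 of 8 mural cell markers (median -0.15). Beside these, 23 of 41 members and 26.4% of all genes tested were higher in males. These male counts and medians of markers include the library labelled saline male 3 and were not taken without it. The part of these cell types in the members' levels was not tested.

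**Figure D5:**
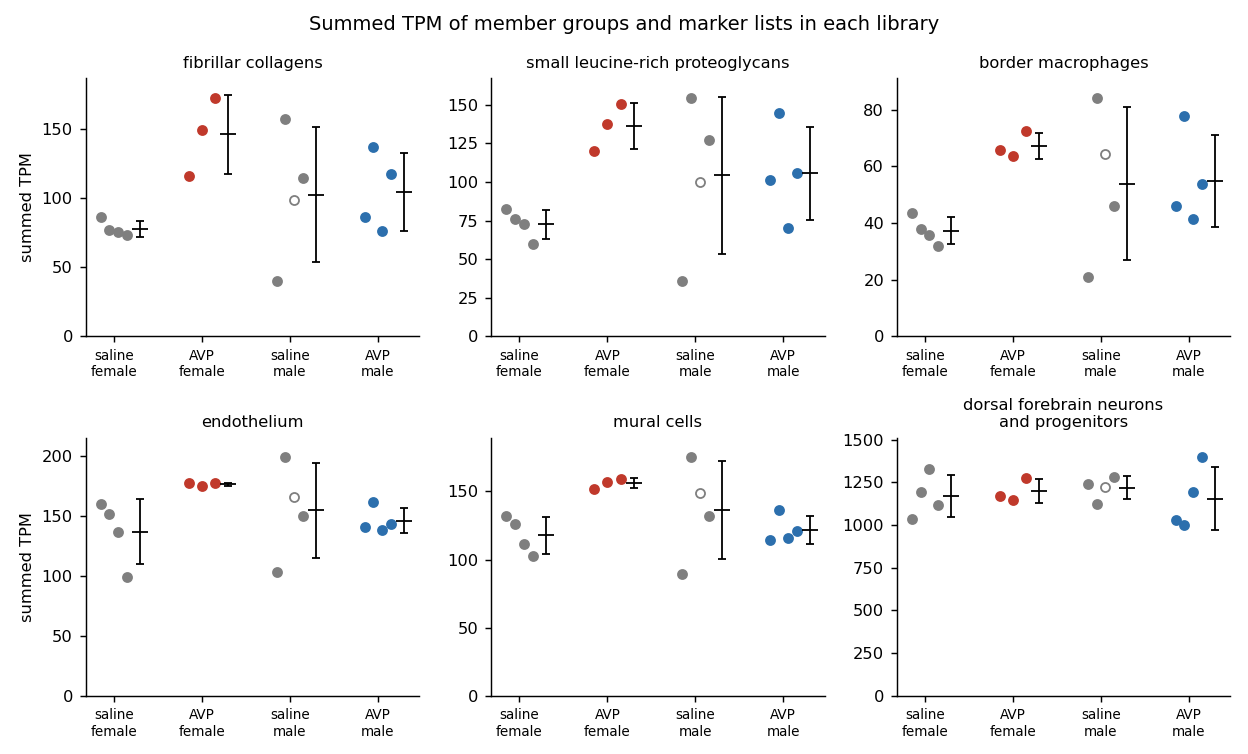
Summed TPM of 2 roles of members and of 4 marker lists in each library by group (linear axes from 0), with the mean and SD beside the points and the library labelled saline male 3 drawn open. The 2 roles drawn and the border macrophage, endothelial and mural cell markers show separated female groups and a wide range in saline males. The neuron and progenitor markers lie between 999 and 1398 TPM in every library.

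In the other lists few genes or none were separated. Of 10 neuron and progenitor markers 8 were higher in females and 0 separated, with a median log2 fold change of 0.02. Of 8 microglial markers, 7 were higher and 1 separated, with a median of 0.14, and Tmem119 was at 0.36. The 5 further fibril collagen chains tested, from a list of 8, had 4 higher and 0 separated (median 0.21), with Col2a1 at 0.40 and Col16a1 at 0.31. Of 12 genes of the TGF-beta pathway tested, which drives collagen transcription in many fibroblasts, 6 were higher and 1 separated, with a median of -0.003, and the receptor genes Tgfbr3 at 0.52 and Tgfbr2 at 0.45 led it. All 5 red blood cell genes tested, from a list of 7, were higher in females and 0 were separated (median 1.04). The haemoglobin genes Hbb-bt were at 1.15 and Hbb-bs at 1.06. All 5 had an unadjusted p under 0.05 by limma, beside 2.34% of all genes higher at that p. In males all 5 were also higher with AVP (median 0.30), beside 26.4% of all genes, and 0 were separated or under that p. Choroid plexus markers were abundant in some libraries of each group and nearly absent from others, with sums of 2278, 21.2 and 1388 TPM in AVP-exposed females and 20.3, 957, 28.7 and 5.53 TPM in saline females. In males the sums were 637, 8.09, 7.25 and 7.15 TPM with AVP and 579, 705, 10 and 3.43 TPM with saline. AVP-exposed female 2, the highest of all libraries for 10 members, was among those with low sums. Saline male 2, the highest for 15, and saline male 1, the lowest for 26, were both among those with high sums. The highest sums were in AVP-exposed females 1 and 3, which were the highest for 2 and 5 members. The relation of these sums to the members' levels was not tested. Of 5 choroid plexus markers tested in females, from a list of 8, all 5 were higher and 1 was separated (median 1.71). By limma 1 had an unadjusted p under 0.05. Transthyretin (Ttr), at 3.33, and Folr1, at 2.57, had the largest fold changes of that list and were not separated. In males 2 genes of that list were tested, and 0 were higher with AVP. Of the cartilage, bone and muscle list 1 of 8 genes was tested in females, and the list summed to 3.93, 7.44 and 4.38 TPM with AVP and 6.25, 7.03, 4.58 and 9.64 TPM with saline, with overlap.

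In 18 of the 42 members 1 protein-coding transcript held more than 95% of the TPM on average, and in 11 no coding transcript held 60%. The mean share of the main coding transcript over the libraries was 97.6% for Col1a1, 96.4% for Col1a2, 97.96% for Col5a2, 99.8% for Col6a1 and 99.1% for Dcn. A pair of coding transcripts shared Col3a1 (62.4% and 33.6%) and Sparc (50.4% and 49.2%), with group means of the first Col3a1 transcript between 60.6% and 64.2%. Postn, which is spliced at its 3' end, had 57.0% in its main transcript and 24.8% in the next. The main share of Postn was 55.0% in AVP-exposed females and 54.4% in saline females. In Fn1 a retained-intron transcript held 31.3% and the main coding transcript 30.5%, so its summed TPM is only in part a level of coding mRNA. The same limit holds for Fbln2, where retained-intron transcripts held 32.4% and 9.92% and the main coding transcript 47.9%. In Plod2 a retained-intron transcript had group means of 10.3% in AVP-exposed males and 16.8% in saline males.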

How the data were processed

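Total RNA of E18 dorsal forebrain was sequenced by the authors as stranded mRNA libraries (Trim Galore 0.4.1, Kallisto 0.43.1, GENCODE M16 transcripts on GRCm38, per the study's methods and processing notes), and 15 libraries were analysed, grouped by labelled treatment and sex. The deposited table holds TPM per transcript for 133849 transcripts, made by the authors with Kallisto. Its columns each total 1000000, so depth per library is unknown. Gene values are sums over transcripts (GENCODE M21 annotation), and 404 transcripts without a gene, with 0.154% to 0.199% of a library's TPM, were left out. Log2(TPM + 0.5) was tested two-sided with limma 3.58.1 (R 4.3.3), with a mean-variance trend, over genes that reached 1 TPM in 50% or more of the libraries compared. Adjustment followed Benjamini and Hochberg, and the threshold was 0.05. Females and males were tested separately, as in the study's methods, and the interaction and a model of both sexes over all libraries. A Wald z test that takes whichever is greater of the variance of the gene and that of genes at its level, as Sleuth does but without its resampled variance, was an alternative. Others were median-of-ratios scaling, pseudocounts of 0.1 and 1, no filter, a filter of 5 TPM in every library, the run of library numbers as a covariate, no trend, 1 fit of all 4 groups and leaving out each library. The fits were tested on simulated data. The members and lists were chosen with earlier results of these data known. Members named with values in every library were those on the study's female list and, in each role, the 2 other tested members with the largest absolute log2 fold change in females. Fbln2, Plod2, Zic1 and others given beside them were added after their values were seen. A group was called separated where its libraries did not overlap with the other group's. Upstream sequences came from RefSeq (GRCm38.p6), 1 start per gene, the first listed. Figures were drawn with matplotlib 3.10.9. Protein sequences were not used here.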

Additional observations from a re-analysis of the deposited data

Results flagged for a closer look

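In 126 groups of 4 libraries examined (3 groups for each of the 42 members), 3 values lay apart from the other 3 libraries by Dixon's criterion, where chance gives about 6.30 at 1 in 20. Col8a1 was at 0.50 TPM in the library labelled saline male 3 and at 1.09 to 1.11 TPM in the other saline males. Col12a1 was at 6.71 TPM in saline female 4 and at 3.72 to 4.23 TPM in the other saline females. Zic1 was at 14.3 TPM in saline female 4 and at 9.42 to 9.87 TPM in the other saline females.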

How the results depend on the processing

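The log2 fold changes in females of the 26 members named by rule kept their direction in all 406 alternative values, and 9 of these passed the threshold, all by the Wald z test. The member median stayed above 0 in females (0.56 to 0.75 when each library was left out), in the interaction and in both sexes together. In females limma called 0 genes, against 16 by the Wald z test and between 0 and 6 when each library was left out (6 without saline female 4), none of them members except under the z test. In males limma called 1 gene, 0 with a pseudocount of 1, with at least 5 TPM in every library, with the library run as a covariate or with 1 fit of all 4 groups, 2 without the trend, 108 by the z test, and 0 to 6 when each library was left out. In the interaction 1 gene was called by the z test and 0 to 1 when each library was left out. In both sexes together 2 were called by the z test and 0 to 1 when each library was left out. The cause of these differences was not tested. Fbln2 in females lay between -0.47 and 0.13 when each library was left out. The member median in males ran from -0.26 without saline male 1 to 0.21 without saline male 2. No paired analysis was possible because the labels do not link libraries of different groups. The unknown depth limits values under 1 TPM most.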
